A study of Homo sapiens with 6 samples.

Results

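DNA replication in a dividing cell rests on proteins that mark origins, load and start the helicase, copy both strands and rebuild chromatin behind the fork. The genes described here are 51 such genes, listed by name for origin recognition, licensing, helicase activation, DNA synthesis, fork support and chromatin assembly, and found among the 78932 gene identifiers of each file by Ensembl identifier without its version. All 51 matched 1 identifier each and all 51 passed the filter on low counts, with 739 to 67084 reads in any library. RNA sequencing was done on Karpas-45, an established T-lineage acute lymphoblastic leukemia line described in the labels as leukemic blasts from bone marrow. The tested libraries came from cells with a lentiviral short hairpin RNA linked to GFP and directed at MEF2C (genotype MEF2C KD, named shMEF2CKD2), and the control libraries from cells labelled scramble control (genotype WT). Both groups are labelled untreated, were grown in RPMI-1640 with serum, and hold 3 technical replicates, so every p-value below reflects the spread of technical replicates alone. GFP-positive cells carrying the MEF2C hairpin were sorted 120 hours after transduction, and the design text does not describe the scramble cells' sort. The labels give 1 hairpin in 1 cell line and no second hairpin is analysed here.

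Licensing takes place before S phase, when the origin recognition complex, CDC6 and CDT1 place the MCM2-7 double ring on DNA, and geminin then blocks further loading. The kinase CDC7 with DBF4 helps CDC45 and GINS join the ring to form the active helicase, after which polymerase alpha-primase lays primers that polymerases delta and epsilon extend with the clamp PCNA. Many of these genes are known targets of E2F transcription factors, which turn them on in late G1, and dividing leukemia cells keep them on.

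Reads assigned to genes numbered 58748597, 97077335 and 50991704 in MEF2C hairpin replicates 1 to 3 and 63228784, 45560303 and 60717141 in scramble replicates 1 to 3. MEF2C itself was at or under the detection floor of 3 reads in every library, with 2, 0 and 0 reads in the MEF2C hairpin libraries and 2, 1 and 0 reads in the scramble libraries, so the targeted gene cannot check the labels and no fold is given for it. Of 10 T-lineage markers all were tested and 8 were higher in the MEF2C hairpin libraries, with summed levels of 4190 to 4250 CPM in those and 3890 to 3940 CPM in scramble libraries (CPM, the standard depth-scaled count unit). Marker lists of other cell types stayed low: the B-lineage list summed to 3.10 to 3.34 CPM in MEF2C hairpin and 2.14 to 2.83 CPM in scramble libraries, with CD22 at 0 reads. The myeloid list summed to 1.67 to 2.59 and 1.76 to 2.09 CPM, the erythroid list to 0.579 to 1.61 and 0.511 to 5.68 CPM, and the embryonic kidney list to 2.37 to 3.02 and 2.75 to 3.64 CPM in MEF2C hairpin and scramble libraries, with LIN28B at 0 reads. The part that this T-lineage marker difference has in the results below was not tested.

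What these genes share outside their names is a short sequence near the start of transcription. The E2F word TTGGCGC, the word TTCGCGC, the word TTGGCGG and the word TTCCCGC were searched on both strands in RefSeq promoter windows of 250 bases before to 50 bases after a gene's start (GRCh38.p14). Of the 45 replication genes with a window, 37 (82.2%) held at least 1 of these words, against 2845 of 10903 tested genes with a window (26.1%) and 16.3% of all 27305 genes in the table. The CCAAT box was in 57.8% of the replication genes and 42.7% of tested genes, the cell cycle homology word TTTGAA in 4.44% and 13.7%, and the MEF2 motif in 0 of 45 and in 2.11%. A match is a run of letters and not a measured binding site.

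The stretches of 30 bases below are shown because the same words begin before the starts of genes that fell, did not pass the test or rose. Each is written 5′ to 3′ on the gene's strand, E2F words on either strand are in capitals, and overlapping words run together. GINS2, LIG1 and POLE fell in the MEF2C hairpin libraries, PCNA, CDC6 and MCM6 did not pass the test, and GINS3 rose.
GINS2, chr16:85688967-85688996, minus strand: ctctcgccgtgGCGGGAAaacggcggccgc
LIG1, chr19:48170439-48170468, minus strand: cttcaccccttTTCCCGCcctcctcccatt
POLE, chr12:132687342-132687371, minus strand: tgggtgggagcGCGCCAAatttctcccctg
PCNA, chr20:5126663-5126692, minus strand: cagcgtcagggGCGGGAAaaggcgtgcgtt
CDC6, chr17:40287841-40287870, plus strand: gaggccgggctTTGGCGGgaggtgggaacg
MCM6, chr2:135876511-135876540, minus strand: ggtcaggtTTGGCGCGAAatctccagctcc
GINS3, chr16:58392455-58392484, plus strand: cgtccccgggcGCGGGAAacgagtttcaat

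The letters GCGGGAA occur at GINS2, PCNA and GINS3, and the word begins 31, 59 and 5 bases before the RefSeq start of these genes. At GINS3 the word runs across the start. Among the 37 genes with a word 12 fell and 3 rose, with a median log2 fold change of -0.02. Among the 8 without one 3 fell and none rose, with a median of -0.05. These counts leave out the replication genes without a window. Of those, MCM4 and RPA3 rose, GINS4 and POLD3 fell, and MCM5 and RPA2 did not pass. Over all tested genes 15.3% fell and 13.5% rose.

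The replication genes as a group moved little. Of the 51 genes, 17 (33.3%) fell and 5 (9.8%) rose in the MEF2C hairpin libraries at an adjusted p under 0.05, and 29 did not pass the test. Over all 17677 tested genes 15.3% fell and 13.5% rose, a split that became 21.0% and 10.6% when counts were adjusted for GC content and gene length (23 and 4 of the 51). Log2 fold changes (MEF2C hairpin over scramble) ran from -0.34 to 0.30 with a median of -0.03, against 0.00 over all tested genes, and 3 of the 51 had an absolute value of at least 0.2. For 25 of the 51 genes the CPM ranges of MEF2C hairpin and scramble libraries were separate (49.0%), 19 lower and 6 higher, against 39.9% of all tested genes. In the main fit each 95% interval of the 29 genes that did not pass lay between -0.2 and 0.2. These intervals reflect technical replicates under 1 scaling and do not bound the change under others. With the adjustment for GC content and length, some of these genes lay outside their main intervals. Examples are CDT1 at -0.20 (main interval -0.11 to 0.03) and POLD2 at -0.15 (main interval -0.10 to 0.00).

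Summed over the 51 genes, the level was 7823, 7758 and 7783 CPM in MEF2C hairpin replicates 1 to 3 and 7978, 8013 and 7997 CPM in scramble replicates 1 to 3. The 3 MEF2C hairpin sums lie below the 3 scramble sums, at 7788 ± 32.8 and 7996 ± 17.2 CPM (SD, n = 3 each). All tested genes at 50 to 100 CPM in scramble libraries had a median log2 fold change of -0.03. At 100 to 200 CPM it was -0.04, and at 200 CPM and over -0.07, so a small decrease was shared by strongly expressed genes. In bulk RNA, fewer cells in S phase and less of these RNAs per cell cannot be told apart.

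**Figure D1:**
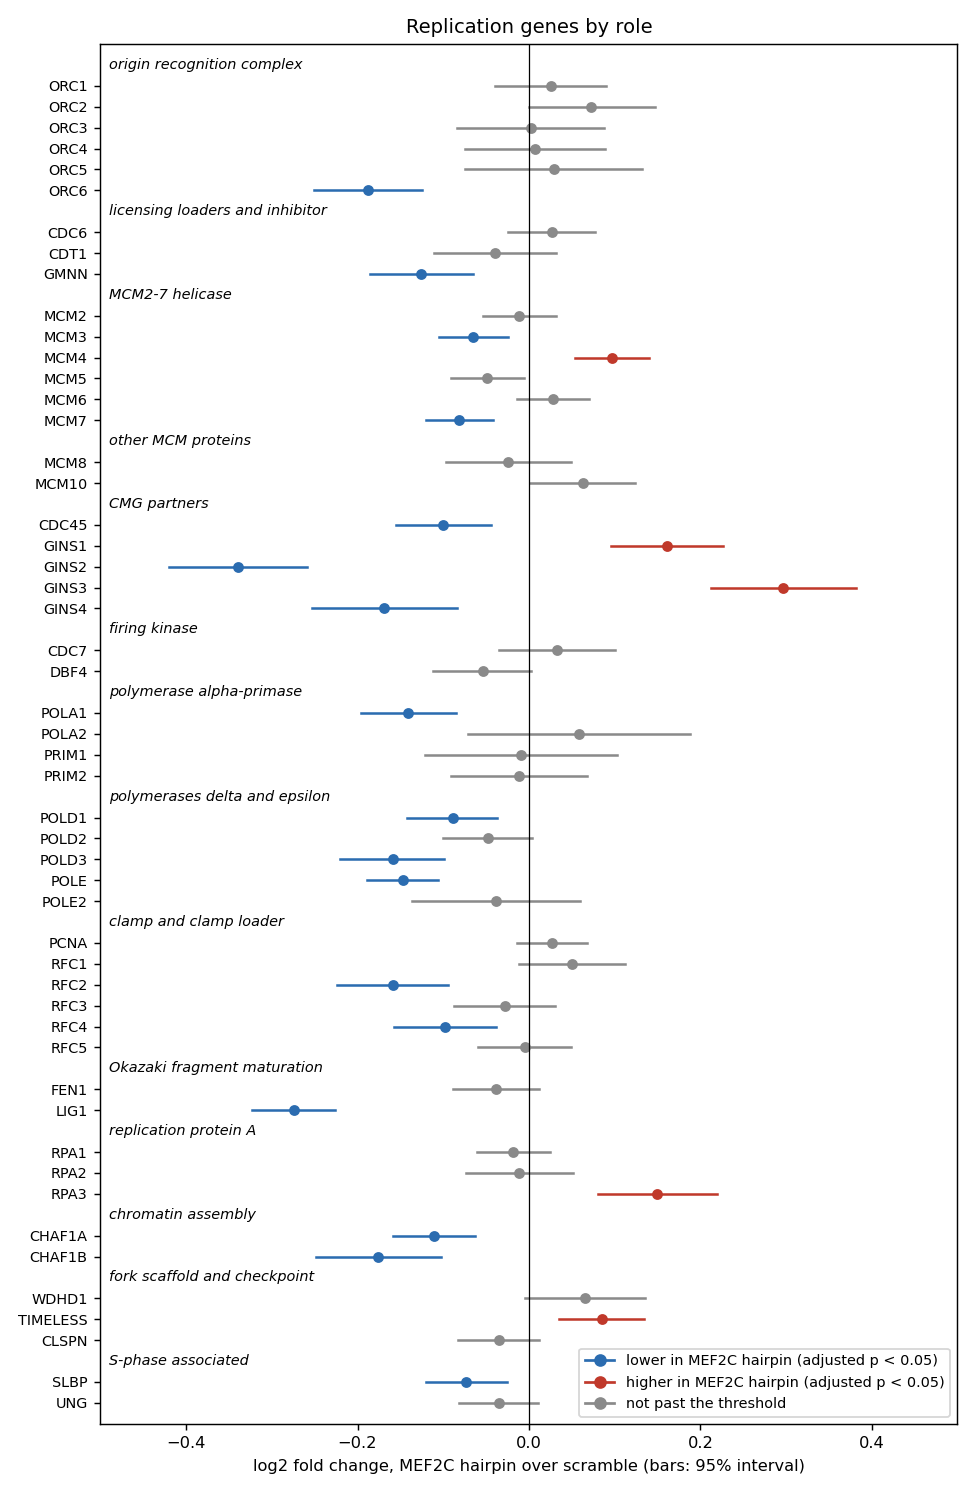
Log2 fold change of each of the 51 replication genes, MEF2C hairpin over scramble, with 95% intervals as bars, grouped by role (3 libraries per group). Blue points are the 17 genes that fell, red points the 5 that rose and grey points the 29 that did not pass an adjusted p of 0.05; GINS2 at -0.34 and GINS3 at 0.30 are the extremes.

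Most replication genes are strongly expressed, with a median of 96.5 CPM in scramble libraries, and over all tested genes the share that fell was larger in classes of higher CPM. Set against tested genes of the same class of scramble CPM, the replication genes were near that background. Of 10 replication genes at 200 CPM and over 4 fell, where 53.9% of the 1008 tested genes of that class did. Of 15 at 100 to 200 CPM 5 fell, against 41.5% of the class, of 18 at 50 to 100 CPM 7 fell, against 701 of 2336, and of 7 at 20 to 50 CPM 1 fell, against 17.0%. At the class shares 18.3 of the 51 would have fallen and 7.11 risen, beside the 17 and 5 counted. Relative to the median of its own class, the median replication gene stood at 0.01 on the log2 scale, and 19 of the 51 lay below their class median. The number lower was thus close to that of equally expressed genes, and the values below are those of single subunits.

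**Figure D2:**
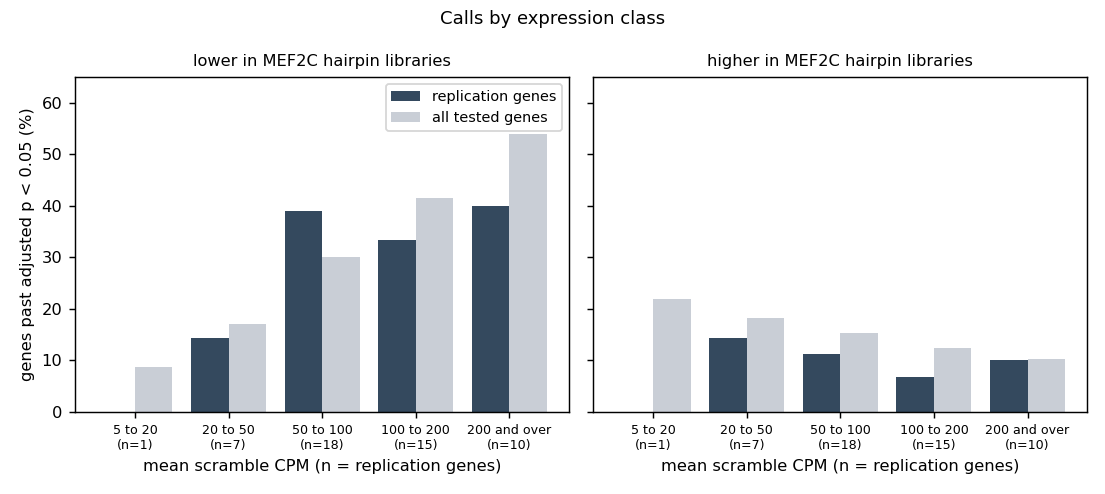
Share of genes past an adjusted p of 0.05 in each class of mean scramble CPM, lower on the left and higher on the right; dark bars are the replication genes (their number under each class) and light bars all tested genes of the class. At 200 CPM and over 4 of 10 replication genes fell, against 53.9% of the class.

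Of the 6 origin recognition genes 1 fell and the others did not pass the test. ORC6, the smallest subunit of the complex (ENSG00000091651.9, chromosome 16, 46689643 to 46698394 in GRCh38), measured 75.9, 79.6 and 79.9 CPM in MEF2C hairpin replicates 1 to 3 and 91.9, 87.6 and 88.7 CPM in scramble replicates 1 to 3. Every MEF2C hairpin library lay below every scramble library, and ORC6 fell by 0.19 on the log2 scale (SE 0.0310, edgeR adjusted p = 8.35e-06). The other 5 subunits, ORC1 to ORC5, had log2 fold changes from 0.00 to 0.07 and overlapping groups. ORC1, the large ATPase subunit whose level cycles, measured 74.2 ± 0.291 CPM in MEF2C hairpin and 73.0 ± 2.09 CPM in scramble libraries (SD, n = 3 each), with an interval of -0.04 to 0.09. ORC2 had the largest value of these 5 at 0.07, and passed the test only without scramble replicate 3 (0.12, edgeR adjusted p = 0.0142; range over 14 alternatives 0.0142 to 0.661).

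Of the loaders and their inhibitor, only the inhibitor passed the test. GMNN, which encodes geminin, the protein that binds CDT1 and prevents a second round of licensing, measured 84.2, 84.9 and 87.0 CPM in the MEF2C hairpin libraries and 93.5, 95.6 and 90.4 CPM in the scramble libraries. The groups did not overlap, and GMNN fell by 0.13 on the log2 scale (SE 0.0298, edgeR adjusted p = 0.00113). CDC6, the ATPase that loads MCM2-7 with ORC, measured 159.3 ± 3.05 and 156.5 ± 3.39 CPM, and CDT1, the MCM2-7 chaperone, 162.5 ± 7.7 and 166.9 ± 7.45 CPM in MEF2C hairpin and scramble libraries (SD, n = 3 each). Their log2 fold changes of 0.03 and -0.04 had intervals of -0.02 to 0.08 and -0.11 to 0.03. Adjusted for GC content and length, CDT1 passed the test at -0.20 (edgeR adjusted p = 0.000683; range over 14 alternatives 0.000683 to 0.990).

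The 6 subunits of the MCM2-7 ring, which are used in equal numbers in the protein complex, did not move together. All 6 genes stood at 200 CPM and over, where 53.9% of tested genes fell and the median log2 fold change was -0.07. Relative to that median MCM7 stood at -0.014 and MCM3 at 0.003, near equally expressed genes. MCM4 stood at 0.16, MCM6 at 0.095, MCM2 at 0.06 and MCM5 at 0.02. MCM7 measured 692.0, 679.5 and 685.6 CPM in MEF2C hairpin replicates 1 to 3 and 712.5, 732.4 and 730.9 CPM in scramble replicates 1 to 3, and fell by 0.08 on the log2 scale (SE 0.0193, edgeR adjusted p = 0.00119). MCM3 fell by 0.065, to 492.2, 493.4 and 490.6 CPM in the MEF2C hairpin libraries, against 505.9, 523.9 and 514.3 CPM in the scramble libraries (SE 0.0200, edgeR adjusted p = 0.0122). MCM4 rose by 0.10 on the log2 scale (SE 0.0212, edgeR adjusted p = 0.000447), with 394.8, 388.5 and 397.8 CPM in the MEF2C hairpin libraries and 376.6, 366.0 and 361.5 CPM in the scramble libraries. All 3 genes had groups that did not overlap, and the changes in level were -5.45% for MCM7, -4.37% for MCM3 and 6.94% for MCM4. Adjusted for GC content and length, the log2 values were larger for MCM7 and MCM3, at -0.17 and -0.105. The ratio of MCM4 to MCM7 in CPM was 0.570, 0.572 and 0.580 in the MEF2C hairpin libraries and 0.529, 0.50 and 0.495 in the scramble libraries. This pair was chosen after its values were seen, so the separation of its ratio follows from the choice, and no test is given. The MCM3 call was lost without scramble replicate 2 (-0.05, edgeR adjusted p = 0.108) and without the filter on low counts (-0.06, edgeR adjusted p = 0.0533), in a range of 0.000118 to 0.108 over 14 alternatives.

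MCM2, MCM5 and MCM6, the remaining ring subunits, had log2 fold changes of -0.01, -0.05 and 0.03 that did not pass. Adjusted for GC content and length, MCM2 and MCM5 passed as lower at -0.10 and -0.14 (edgeR adjusted p = 0.000172 and 3.75e-06; ranges over 14 alternatives 0.000172 to 0.998 and 3.75e-06 to 0.322), and MCM5 also passed under limma-voom (-0.05, adjusted p = 0.0442). Exons of other genes cover 23.6% of the exonic bases of MCM2, and whether reads there were lost to counting was not tested. Per kilobase of exon, scramble levels of the 6 ring genes ran from 49.9 (MCM5) to 165 CPM per kb (MCM7), and MEF2C hairpin levels of MCM7 were 156 CPM per kb. Summed over the ring, MEF2C hairpin libraries held 2729, 2698 and 2717 CPM and scramble libraries 2744, 2778 and 2751 CPM. Of the MCM relatives outside the ring, MCM8, a helicase of homologous recombination, measured 60.6 ± 1.28 and 61.7 ± 2.76 CPM, and MCM10, which helps the helicase start, 114.5 ± 2.79 and 109.6 ± 5.72 CPM (SD, n = 3 each, MEF2C hairpin first). Neither passed the test, at -0.02 and 0.06.

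The partners of the ring in the active helicase showed the widest spread of all roles. All 5 passed the test, 3 lower and 2 higher. In their classes of scramble CPM, from 17.0% (20 to 50 CPM) to 41.5% (100 to 200 CPM) of tested genes fell. From 12.3% (100 to 200 CPM) to 18.1% (20 to 50 CPM) rose. Relative to the medians of these classes, GINS2 stood at -0.31, GINS4 at -0.16, CDC45 at -0.055, GINS1 at 0.19 and GINS3 at 0.31. GINS2 (ENSG00000131153.9, chromosome 16, 85676198 to 85690073) measured 50.02, 47.89 and 45.37 CPM in MEF2C hairpin replicates 1 to 3 and 57.6, 61.5 and 62.5 CPM in scramble replicates 1 to 3. It fell by 0.34 on the log2 scale (95% interval -0.42 to -0.26, SE 0.0395, edgeR adjusted p = 1.04e-08), a level 21.0% lower. GINS3 (ENSG00000181938.14, chromosome 16, 58295080 to 58406144) measured 42.7, 42.6 and 43.7 CPM in the MEF2C hairpin libraries and 35.0, 36.1 and 33.9 CPM in the scramble libraries. It rose by 0.30 (95% interval 0.21 to 0.38, SE 0.0416, edgeR adjusted p = 4.58e-07), a level 22.9% higher. The 2 genes encode subunits of one 4-protein complex and lie on the same chromosome, and their changes were of like size and opposite sign.

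GINS1 rose by 0.16 (SE 0.0320, edgeR adjusted p = 0.000131), with 88.1, 86.6 and 88.5 CPM in MEF2C hairpin libraries and 77.0, 75.7 and 82.4 CPM in scramble libraries. GINS4 fell by 0.17 (SE 0.0418, edgeR adjusted p = 0.00177), with 37.3, 36.6 and 35.2 CPM in MEF2C hairpin libraries and 41.3, 39.9 and 41.4 CPM in scramble libraries. Exons of other genes cover 10.9% of the exonic bases of GINS3 and, with the antisense gene GPAT4-AS1 among them, 23.6% of those of GINS4. No source states whether counting used strand, which makes the values of both genes uncertain. CDC45, which bridges GINS and the ring, fell by 0.10 (SE 0.0276, edgeR adjusted p = 0.00500), at 103 ± 0.783 CPM in MEF2C hairpin and 111 ± 2.91 CPM in scramble libraries (SD, n = 3 each). All 5 genes had groups that did not overlap, as did 39.9% of all tested genes. Each of the 5 kept its call in all 14 alternatives tested, with CDC45 at -0.15 when adjusted for GC content and length.

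The balance among GINS transcripts therefore differed between the groups. The ratio of GINS3 to GINS2 in CPM was 0.854, 0.890 and 0.962 in MEF2C hairpin replicates 1 to 3 and 0.608, 0.587 and 0.542 in scramble replicates 1 to 3, and that of GINS1 to GINS2 was 1.76, 1.81 and 1.95 in the MEF2C hairpin libraries and 1.34, 1.23 and 1.32 in the scramble libraries. Neither ratio overlapped between the groups; these pairs were chosen after their values were seen and are given without a test. Per kilobase of exon, GINS2 stood at 14.6 CPM per kb in MEF2C hairpin and 18.5 CPM per kb in scramble libraries, and GINS3 at 8.42 and 6.86 CPM per kb. The sum over CDC45 and the 4 GINS genes was 318 ± 2.73 CPM in MEF2C hairpin and 325.5 ± 6.57 CPM in scramble libraries (SD, n = 3 each).

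**Figure D3:**
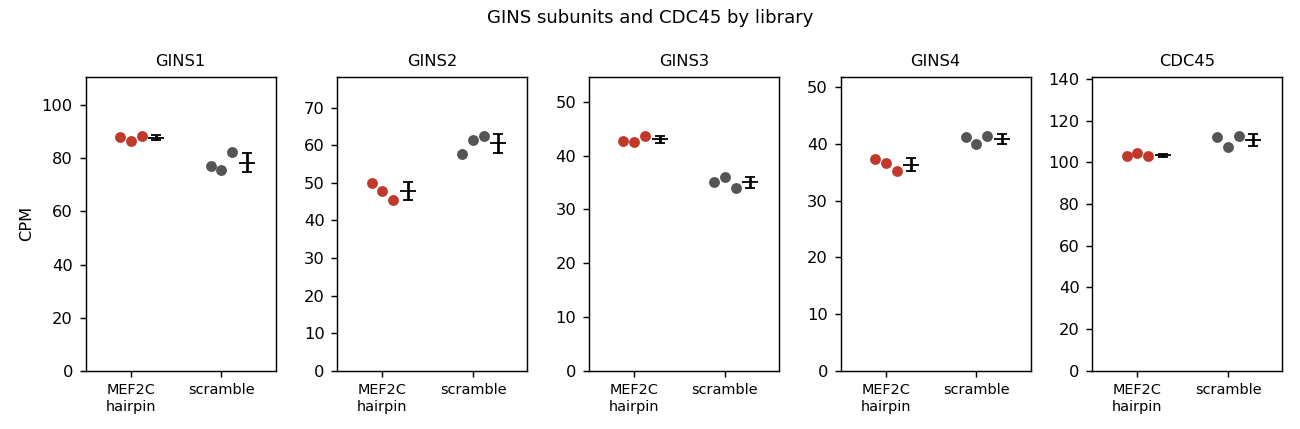
CPM of GINS1, GINS2, GINS3, GINS4 and CDC45 in each library, MEF2C hairpin on the left (red) and scramble on the right (grey), with mean and SD (n = 3) beside the points; axes start at 0. GINS1 and GINS3 lie higher, and GINS2, GINS4 and CDC45 lower, in all 3 MEF2C hairpin libraries than in any scramble library.

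The kinase that starts the helicase did not pass the test in either subunit. CDC7, the catalytic subunit, measured 76.6, 79.0 and 80.1 CPM in MEF2C hairpin libraries and 80.5, 73.0 and 76.6 CPM in scramble libraries, a log2 fold change of 0.033 with an interval of -0.035 to 0.101. DBF4, its activating subunit, measured 97.3 ± 2.41 CPM in MEF2C hairpin and 101 ± 1.65 CPM in scramble libraries (SD, n = 3 each), at -0.05 with an interval of -0.11 to 0.00.

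Of the 5 genes of polymerases delta and epsilon 3 fell and none rose, and all 5 log2 fold changes were below 0, from -0.16 to -0.04. In their classes of scramble CPM, from 17.0% (20 to 50 CPM) to 53.9% (200 CPM and over) of tested genes fell. Relative to the medians of these classes, POLD3 stood at -0.13, POLE at -0.08, POLD1 at -0.045, POLE2 at -0.03 and POLD2 at -0.003. POLE, the catalytic subunit that copies the leading strand, fell to 392.2, 378.5 and 382.6 CPM in the MEF2C hairpin libraries, against 430.0, 422.6 and 424.4 CPM in the scramble libraries (log2 fold change -0.15, SE 0.0207, edgeR adjusted p = 4.73e-07). POLD3, an accessory subunit of polymerase delta, fell to 78.7, 77.7 and 76.8 CPM, against 87.9, 86.7 and 85.8 CPM in the scramble libraries (log2 fold change -0.16, edgeR adjusted p = 5.87e-05, SE 0.0298). Neither gene had overlapping groups. POLD1, the catalytic subunit of polymerase delta, fell by 0.09 (SE 0.0258, edgeR adjusted p = 0.00713), a call lost without MEF2C hairpin replicate 2 (-0.07, edgeR adjusted p = 0.0747; range over 14 alternatives 3.58e-11 to 0.0747). Adjusted for GC content and length, POLD1 stood at -0.27. POLD2 and POLE2, further accessory subunits, stood at -0.05 and -0.04 and did not pass, but POLD2 passed at -0.15 when adjusted for GC content and length (edgeR adjusted p = 8.38e-06; range over 14 alternatives 8.38e-06 to 0.636). The 5 genes summed to 817.8, 799.2 and 797.6 CPM in MEF2C hairpin libraries and 869.8, 872.4 and 869.2 CPM in scramble libraries.

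In polymerase alpha-primase the catalytic polymerase subunit alone passed the test. POLA1 fell to 103, 99.7 and 105 CPM in the MEF2C hairpin libraries, against 112, 113 and 113 CPM in the scramble libraries (log2 fold change -0.14, SE 0.0274, edgeR adjusted p = 0.000101), without overlap. The regulatory subunit POLA2 and the primase subunits PRIM1 and PRIM2 had log2 fold changes of 0.06, -0.01 and -0.01. POLA2, at 16.6 ± 1.26 CPM in MEF2C hairpin and 16.0 ± 0.516 CPM in scramble libraries (SD, n = 3 each), was the lowest of the 51 genes, and its interval of -0.07 to 0.19 was the widest in this complex. Exons of other genes cover 35.1% of the exonic bases of POLA2 and 21.6% of those of PRIM1.

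PCNA, the sliding clamp, measured 380.2, 384 and 379 CPM in MEF2C hairpin libraries and 375, 375 and 372 CPM in scramble libraries. The groups did not overlap, but the difference did not pass the test (log2 fold change 0.03, interval -0.01 to 0.07, edgeR adjusted p = 0.364), and the value was -0.02 when adjusted for GC content and length. Per kilobase of exon PCNA was the highest of the 51 genes, at 259 CPM per kb in MEF2C hairpin and 254 CPM per kb in scramble libraries. Of the clamp loader subunits, RFC2 fell to 71.5, 71.5 and 72.0 CPM in MEF2C hairpin libraries, against 79.5, 77.6 and 82.8 CPM in scramble libraries (log2 fold change -0.16, SE 0.0318, edgeR adjusted p = 0.000146). RFC4 fell to 88.8, 91.3 and 90.6 CPM, against 94.85, 95.27 and 99.53 CPM in scramble libraries (log2 fold change -0.10, SE 0.0291, edgeR adjusted p = 0.00937), but did not pass without scramble replicate 3 (-0.08, edgeR adjusted p = 0.0869; range over 14 alternatives 0.000649 to 0.0869). RFC1, RFC3 and RFC5 ran from -0.03 to 0.05 and did not pass.

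LIG1, the DNA ligase that seals Okazaki fragments (ENSG00000105486.15, chromosome 19, 48115445 to 48170603), had the smallest adjusted p of all 51 genes. It measured 181.1, 174.3 and 174.2 CPM in MEF2C hairpin replicates 1 to 3 and 210.7, 218.4 and 211.5 CPM in scramble replicates 1 to 3. Every MEF2C hairpin library lay below every scramble library. LIG1 fell by 0.27 on the log2 scale (95% interval -0.32 to -0.23, SE 0.0240, edgeR adjusted p = 1.12e-11), a level 17.3% lower, and the adjusted p stayed at or below 2.08e-08 in all 14 alternatives. FEN1, the flap nuclease that acts just before the ligase, measured 149.6 ± 3.3 CPM in MEF2C hairpin and 153.5 ± 1.12 CPM in scramble libraries (SD, n = 3 each). Its log2 fold change of -0.04 did not pass (edgeR adjusted p = 0.272), and became -0.11 when adjusted for GC content and length (edgeR adjusted p = 0.00110; range over 14 alternatives 0.00110 to 0.659).

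Replication protein A coats single-stranded DNA as a trimer, and 1 of its 3 genes rose. RPA3, the smallest subunit, measured 106, 104 and 95.2 CPM in MEF2C hairpin libraries and 88.3, 91.2 and 95.5 CPM in scramble libraries, with MEF2C hairpin replicate 3 just under scramble replicate 3. It rose by 0.15 (SE 0.0340, edgeR adjusted p = 0.000802) and is the one called gene of the 51 whose groups overlap. RPA1 and RPA2, the large and middle subunits, measured 292 ± 2.17 and 295 ± 4.22 CPM and 87.1 ± 2.71 and 87.7 ± 2.14 CPM in MEF2C hairpin and scramble libraries (SD, n = 3 each), at -0.02 and -0.01, and did not pass.

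Both large subunits of chromatin assembly factor 1, which places new histones behind the fork through its contact with PCNA, fell. Among tested genes, 41.5% fell in the class of CHAF1A (100 to 200 CPM) and 701 of 2336 in that of CHAF1B (50 to 100 CPM). From the medians of these classes, CHAF1A stood at -0.067 and CHAF1B at -0.145. CHAF1B measured 63.3, 61.1 and 60.0 CPM in MEF2C hairpin libraries and 66.0, 72.3 and 70.3 CPM in scramble libraries (log2 fold change -0.18, SE 0.0357, edgeR adjusted p = 0.000178). CHAF1A measured 172.5, 173.9 and 170.3 CPM in MEF2C hairpin libraries and 187.2, 188.5 and 182.6 CPM in scramble libraries (log2 fold change -0.11, edgeR adjusted p = 0.000317, SE 0.0236). The groups did not overlap for either gene, and both calls held in all 14 alternatives, with CHAF1A at -0.20 when adjusted for GC content and length.

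Of 3 fork scaffold and checkpoint genes 1 rose and none fell. TIMELESS, of the fork protection complex, rose by 0.085 on the log2 scale (SE 0.0244, edgeR adjusted p = 0.00695), with 169, 167 and 168 CPM in MEF2C hairpin libraries and 156, 157 and 163 CPM in scramble libraries, a call lost when adjusted for GC content and length (0.05, edgeR adjusted p = 0.114; range over 14 alternatives 0.00167 to 0.114). WDHD1, the scaffold that links polymerase alpha to the helicase, measured 57.6 ± 0.506 CPM in MEF2C hairpin and 55.0 ± 0.527 CPM in scramble libraries (SD, n = 3 each) without overlap, and did not pass (log2 fold change 0.07, edgeR adjusted p = 0.168). CLSPN, which encodes the checkpoint adaptor claspin, stood at -0.035. Of the remaining S-phase genes, SLBP, which binds the histone mRNA stem-loop, fell to 170.2, 169.5 and 171 CPM in MEF2C hairpin libraries, against 176.5, 179.6 and 181 CPM in scramble libraries (log2 fold change -0.07, SE 0.0234, edgeR adjusted p = 0.0156). SLBP did not pass without the filter and without scramble replicate 2, scramble replicate 3 or MEF2C hairpin replicate 2 (edgeR adjusted p = 0.0584, 0.0522, 0.0636 and 0.0626; range over 14 alternatives 5.30e-06 to 0.0636), and stood at -0.15 when adjusted for GC content and length. UNG, the uracil glycosylase, did not pass at -0.035, and passed at -0.09 when adjusted for GC content and length (edgeR adjusted p = 0.00178; range over 14 alternatives 0.00178 to 0.554).

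**Figure D4:**
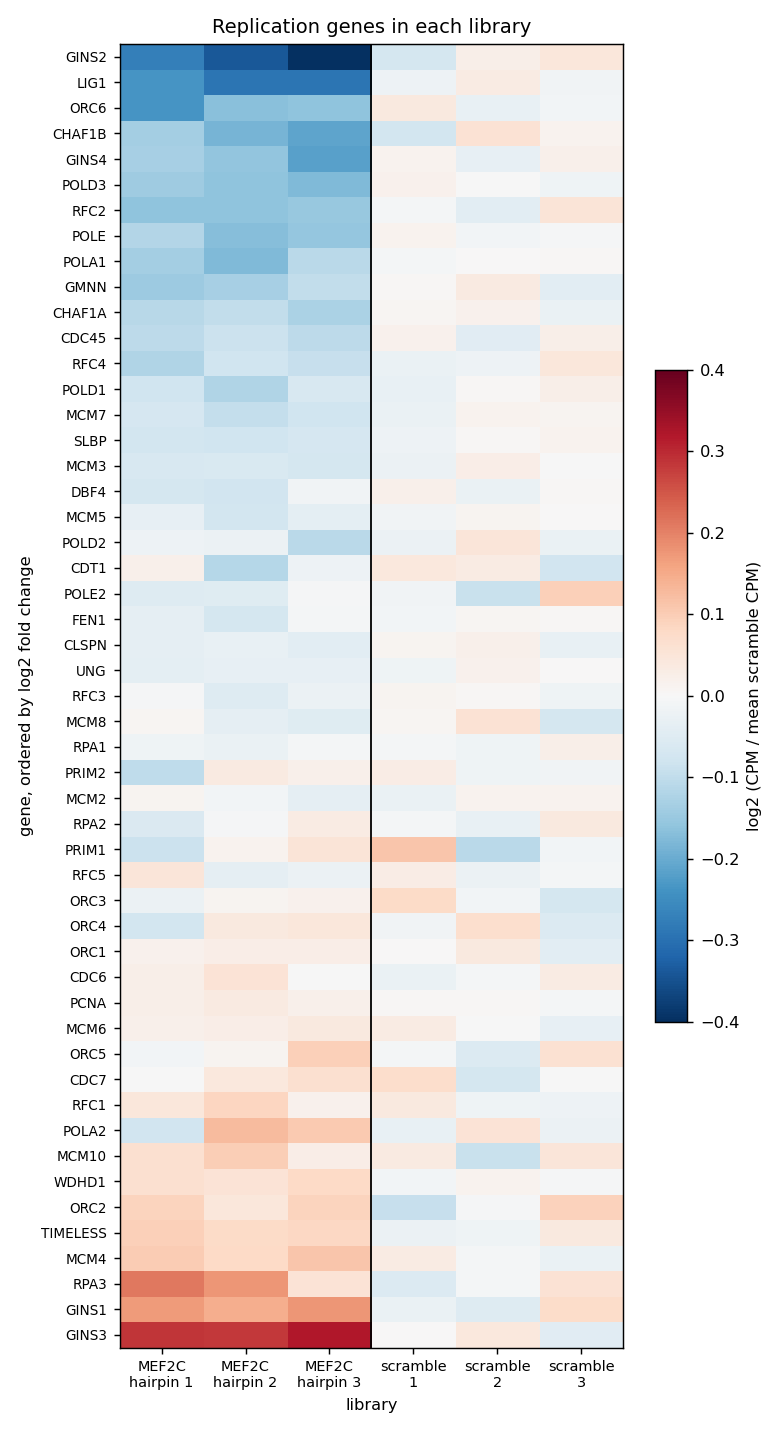
Log2 ratio of CPM to the scramble mean for the 51 replication genes (rows, ordered by log2 fold change) in each library (columns, MEF2C hairpin left of scramble); blue is below and red above the scramble mean. GINS2 and LIG1 are low, and GINS3 and GINS1 high, in all 3 MEF2C hairpin libraries, while most rows in the middle are near 0 in every library.

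Replication and fork genes beyond the 51 showed a like mix. Of 45 further genes, such as histone chaperones, topoisomerases, checkpoint kinases and S-phase cyclins, all were tested, 15 fell and 2 rose, with a median log2 fold change of -0.05. At the shares of equally expressed tested genes 16.0 would have fallen and 6.08 risen, and adjusted for GC content and length 21 fell and 2 rose. RBBP4, the small subunit of chromatin assembly factor 1, fell to 802 ± 9.24 CPM in MEF2C hairpin libraries, against 893 ± 5.48 CPM in scramble libraries (SD, n = 3 each; log2 fold change -0.155, edgeR adjusted p = 2.15e-08). Other exons overlap 18.0% of RBBP4. UHRF1, which recruits maintenance methylation to forks, TOP1, the topoisomerase that relieves supercoils ahead of them, and SUPT16H, of the histone chaperone FACT, fell by 0.14, 0.14 and 0.13. The 2 that rose were DTL, the CUL4 adaptor that directs CDT1 to degradation, with 141, 142 and 140.5 CPM in MEF2C hairpin and 126, 127 and 125 CPM in scramble libraries (log2 fold change 0.17, edgeR adjusted p = 1.31e-06), and the cohesin acetyltransferase ESCO2 (0.14, edgeR adjusted p = 0.00420).

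Other cell cycle lists are given beside the counts that the shares of equally expressed tested genes would give. Of 14 tested nucleotide supply genes 9 fell and none rose, against 6.24 and 1.71 at those shares, with a median of -0.08, among them the ribonucleotide reductase subunit RRM1, at 311 ± 3.01 CPM in MEF2C hairpin and 367 ± 5.39 CPM in scramble libraries (SD, n = 3 each). Of 20 mitosis genes 2 fell and 7 rose, against 8.68 and 2.38 at those shares, with a median of 0.03. The spindle assembly factor gene TPX2 fell, at 456.9 ± 3.08 CPM in MEF2C hairpin and 502.3 ± 8.52 CPM in scramble libraries, and PTTG1, which encodes securin, rose, at 69.4 ± 0.807 and 59.7 ± 1.11 CPM (SD, n = 3 each). Of 9 tested replication-dependent histone genes none fell and 4 rose, against 1.01 and 1.4 at those shares, such as H2BC4 at 33.3 ± 1.61 and 27.7 ± 1.08 CPM in MEF2C hairpin and scramble libraries (SD, n = 3 each). Of 17 genes of proliferation control 10 fell and 2 rose, against 6.76 and 2.23 at those shares: RBL1, of the retinoblastoma family, stood at 163.1 ± 2.47 and 186.6 ± 2.25 CPM and the kinase inhibitor gene CDKN1A at 11.03 ± 0.197 and 5.29 ± 0.518 CPM in MEF2C hairpin and scramble libraries (SD, n = 3 each). These differences between lists were not tested.

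The words TTGAGAA and TGAGAAA, picked because earlier results of these data showed them to be frequent among lower genes, were also counted in 3' UTRs. They stood in the 3' UTR of 11 of the 51 replication genes (21.6%), GINS2 and CHAF1B included, and of 27.5% of 11954 tested protein-coding genes. Of the 11 genes with a word 4 fell (36.4%), and of the 40 without 13 fell (32.5%). Over all tested protein-coding genes 29.8% of those with a word and 17.4% of those without fell. Since the words were picked for being frequent among lower genes of these data, this last difference follows from the choice. None of these shares was matched for CPM or for 3' UTR length.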

How the data were processed

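Read counts per gene, 1 deposited file for each of 6 libraries, were made by the authors with Trim Galore, STAR and HTSeq on hg38, per the submitters' processing notes; versions, annotation release and strand setting are not given in the sources used here. RNA was extracted with TRIzol and libraries made with TruSeq, per the labels' protocols. The 5 summary lines of each file, 19.2% to 31.4% of reads, named no gene and were left out; reads aligned to several places took 16.1% in MEF2C hairpin replicate 3 and 3.56% to 6.86% elsewhere.

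Genes were kept by filterByExpr (minimum count 10; 17677 genes), scaled by TMM and tested with edgeR 4.0.16 under R 4.3.3 (quasi-likelihood, robust, group as the only term), with Benjamini-Hochberg adjustment over all tested genes and a threshold of 0.05. Standard errors were taken from the F statistic, and intervals are 95%. CPM uses TMM-scaled totals; marker sums use gene totals. The test was tried on simulated counts first. Symbols came from a gene name table, positions and exons from GENCODE 29 (GRCh38) and promoters from RefSeq.

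The members, lists and tests were chosen with earlier results of these data known. All 51 genes may be named; values in every library were given for up to 3 genes per role, those lowest in adjusted p among the called, or else the strongest expressed. Outside them, up to 4 replication genes per direction and 2 per other list were named by adjusted p; genes given beyond that were chosen after their values were seen. Alternatives were other scalings and filters, a replicate block, the fit without each library, DESeq2 1.42.0, limma-voom (limma 3.58.1), and a loess correction for GC content and length, available for 90.0% of tested genes. Chi-square per gene between libraries of 1 group, scaled by total reads without TMM, was 3.31 to 4.46, more than counting noise. The fits took each library as its own unit, which does not make technical replicates independent samples.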

Additional observations from a re-analysis of the deposited data

How the results depend on the processing

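Of the 22 called replication genes, 17 kept their call and direction in all 14 alternatives with a test, none changed direction, and 5 (MCM3, POLD1, RFC4, SLBP, TIMELESS) lost the call in at least 1. Of the 29 uncalled genes 7 gained a call in at least 1: CDT1, FEN1, MCM2, MCM5, POLD2 and UNG with the GC and length correction, where MCM2 stood at -0.103, and ORC2 without scramble replicate 3. The count of lower genes ran from 15 to 23 and that of higher genes from 4 to 6; with the correction for GC content and length 23 fell and 4 rose, where 21.0% and 10.6% of all tested genes did, and the class shares would give 23.3 and 5.45. The replicate block gave 17 lower and 5 higher of the 51, and 15 and 2 of the 45 further genes, as without it. Same-numbered libraries did not deviate together (correlations -0.0135, -0.0137 and -0.00314). The labels do not state whether the numbers pair the libraries, and an absence of shared deviation cannot settle it. The median log2 fold change of -0.028 became -0.017 with upper-quartile scaling and -0.016 with the stricter filter. With the correction for GC content and length it became -0.050. Over all tested genes the median was 0.004 in the main fit. There it became 0.015 with upper-quartile scaling, 0.005 with the stricter filter and -0.028 with the correction. Relative to the median of the scramble CPM class, the replication genes' median was 0.009 in the main fit and with each of these changes. Without each library in turn, their uncentred median ran from -0.036 to -0.021. The cause of these shifts was not tested. MCM3 stood at 0.003 relative to its class. In 13 uncalled genes the sign, near 0, changed: to 0.002 for PRIM1 and 0.005 for RFC5 with upper-quartile scaling; to 0.00029 for MCM2, 0.003 for PRIM1, 0.006 for RFC5 and 0.00048 for RPA2 with the stricter filter; and to -0.020 for ORC1, -0.002 for POLA2 and -0.023 for PCNA with the GC and length correction. Without 1 library the values ran from -0.035 to 0.045 for ORC3, -0.022 to 0.043 for ORC4, -0.002 to 0.059 for ORC5, -0.060 to 0.006 for MCM8, -0.076 to 0.010 for POLE2, -0.055 to 0.052 for PRIM1, -0.041 to 0.028 for PRIM2, -0.033 to 0.012 for RFC5 and -0.032 to 0.010 for RPA2.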
